A study of Homo sapiens with 18 samples.

Results

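RNA was compared between PEO1 cells that had been treated with 10 nM estradiol (E2) for 8 h and untreated PEO1 cells at 0 h, both after transfection with a control siRNA. PEO1 is an established human high-grade serous ovarian cancer line. The comparison used the samples that the labels give as siControl at 0 h and at 8 h, 3 in each group and 6 of the 18 in the series, and it covered all genes. The cells of all groups had been kept in phenol red-free medium with charcoal-stripped serum, which is low in steroid hormones, before E2 was added. The series title describes mutant p53, and the siControl arm is the one in which p53 was not targeted. The other samples used for comparison were 3 siControl samples at 2 h of E2, and 3 sip53 samples (siRNA against p53) at each of 0 h and 8 h. The 0 h samples were untreated and no vehicle-treated sample at 8 h was analysed here, so E2 and 8 h of elapsed time cannot be told apart. Whether the replicates of a group were grown as separate cultures is not stated in the labels. The p-values reflect how much samples of a group vary, with the spread estimated over all 18 libraries. That variation may be technical. In bulk samples, fewer cells of a type and less RNA per cell cannot be told apart.

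Estradiol binds the estrogen receptors, of which ESR1 (ER alpha) is the main form in breast and ovarian carcinoma. The bound receptor attaches to DNA at estrogen response elements, most of them in distal enhancers, and recruits coactivators or corepressors. Genes it acts on directly can change within minutes to hours, and later changes also include genes downstream of the first ones.

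Total counts were 7542457 to 10132570 per sample at 0 h and 8781324 to 9688603 at 8 h. The library siControl 0 h replicate 2 stood apart, at 58.2 on the first principal component of the 6 samples (34.7% of the variance), where the others ran from -35.6 to 19.3, and it had the lowest depth. Several of the results are repeated without it. The summed level of 10 epithelial and ovarian carcinoma markers was 4980 to 5510 CPM, the reads of a gene scaled to a common library size, at 0 h and 4830 to 5400 CPM at 8 h. Fibroblast markers summed to 6.22 to 13.5 CPM at 0 h and 4.56 to 5.57 CPM at 8 h, with LUM, DCN, COL1A2 and COL3A1 at 0, and leukocyte markers to 4.15 to 4.91 and 4.7 to 6.92 CPM, with PTPRC, CD3D, LYZ and TYROBP at 0. Endothelial markers summed to at most 0.655 CPM and mesothelial markers to 8.43 to 14.5 CPM over the 6 samples.

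At 8 h the genes that rose were led by CISH, an inhibitor of cytokine signalling, and by stress response and amino acid supply genes such as CHAC1, DDIT4, SESN2 and SLC38A2. The genes that fell included ESM1, a secreted proteoglycan, LUCAT1, a long noncoding RNA, and several chaperones. Of 15318 genes tested with edgeR's quasi-likelihood test, 273 rose (1.78%) and 126 fell (0.823%) at a Benjamini-Hochberg adjusted p under 0.05, 2.6% in all. Most changes were small: 64 of the rises were at least 1 on the log2 scale, a doubling, and 49 of the falls were at least as large. The median size was 0.70 for the rises and 0.765 for the falls, and the median change of all genes was close to 0. Of the genes called, 271 of those that rose and 123 of those that fell had no overlap between the 3 samples of each group. Over all genes tested, 10.5% did not overlap in the upward direction and 8.89% in the downward direction. Protein-coding genes made up 254 of the rises and 107 of the falls.

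**Figure D1:**
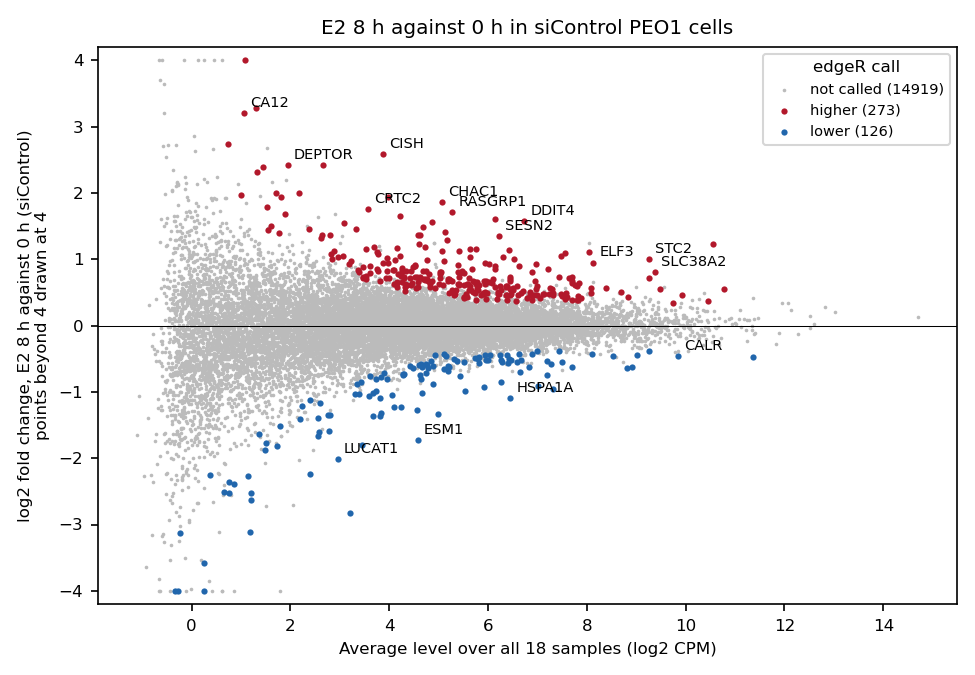
Log2 fold change at 8 h against 0 h (vertical axis) against average log2 CPM (horizontal axis) for the 15318 genes tested in siControl cells, with points beyond 4 drawn at 4. Coloured points are the 273 genes called higher and the 126 called lower by edgeR at an adjusted p under 0.05, and grey points did not pass the test.

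The number of calls moved with single libraries. Leaving out siControl 0 h replicate 1 gave 443 rises and 296 falls, and leaving out 0 h replicate 2 gave 139 and 50. Without 8 h replicate 1 there were 183 and 80, without 8 h replicate 2 there were 145 and 35, and without 8 h replicate 3 there were 163 and 85. A total of 123 genes, 97 higher and 26 lower, were called in all 6 fits that each left out 1 library. Every fold change below is the log2 difference between 8 h and 0 h with its standard error (SE). Levels are CPM after scaling of the libraries, and p is adjusted over all genes tested. For each gene list below, the number called can be read beside the shares of all genes tested, 1.78% higher and 0.823% lower. Of the 15318 genes tested, 2583 had an unadjusted edgeR p under 0.05.

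CISH (chromosome 3, 50606490 to 50611831 in build GRCh38) had the largest rise of the well-expressed genes. It stood at 2.7, 1.92 and 1.71 CPM at 0 h and at 10.4, 13.7 and 14.4 CPM at 8 h, a change of 2.58 (SE 0.23, edgeR adjusted p = 1.38e-07). CHAC1, which breaks down glutathione, was at 20.5, 17.8 and 22.2 CPM at 0 h and at 69.9, 78.4 and 71.6 CPM at 8 h, a change of 1.86 (SE 0.15, edgeR adjusted p = 7.7e-08). All 3 samples at 8 h lay above all 3 at 0 h in both genes, with a gap wider than the spread within either group. RASGRP1, an exchange factor that activates RAS, went from 14.1, 14.1 and 17.3 CPM to 52.6, 54.5 and 42.3 CPM (1.71, SE 0.13, edgeR adjusted p = 7.7e-08). LONRF2, a ubiquitin ligase, went from 8.81, 9.75 and 7.57 CPM to 27.4, 28.4 and 26.5 CPM (1.65, SE 0.18, edgeR adjusted p = 3.22e-06). The 0 h and 8 h levels of LONRF2 each kept within a narrow range. Groups without overlap were a condition for choosing all of these genes by size of rise, so the absence of overlap is not separate evidence.

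The promoters of these 4 genes are shown because they had the largest rises among well-expressed genes with an entry in the RefSeq promoter table (GRCh38.p14). Each run is the 250 bases before the start of the RefSeq transcript that the table uses, 5′ to 3′ on the gene's own strand. GENCODE's outermost start can differ, and all 4 windows overlap the GENCODE extent of their gene in part or in full. They lie at chr3:50611775-50612024 (minus strand) for CISH, chr15:40953221-40953470 (plus strand) for CHAC1, chr15:38564815-38565064 (minus strand) for RASGRP1 and chr2:100322502-100322751 (minus strand) for LONRF2. Capitals mark matches to the STAT element TTCNNNGAA or to the C/EBP-ATF element TGATGNAA on either strand.
CISH: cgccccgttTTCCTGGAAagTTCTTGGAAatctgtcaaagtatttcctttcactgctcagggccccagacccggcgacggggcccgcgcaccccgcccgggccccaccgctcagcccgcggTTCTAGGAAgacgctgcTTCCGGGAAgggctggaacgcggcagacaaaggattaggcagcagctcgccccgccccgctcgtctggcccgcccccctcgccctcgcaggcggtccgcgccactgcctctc
CHAC1: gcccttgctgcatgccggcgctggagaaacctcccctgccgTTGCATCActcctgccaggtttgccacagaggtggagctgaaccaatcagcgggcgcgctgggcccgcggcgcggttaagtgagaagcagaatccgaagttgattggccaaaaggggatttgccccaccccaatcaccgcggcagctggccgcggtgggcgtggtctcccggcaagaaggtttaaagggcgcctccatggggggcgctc
RASGRP1: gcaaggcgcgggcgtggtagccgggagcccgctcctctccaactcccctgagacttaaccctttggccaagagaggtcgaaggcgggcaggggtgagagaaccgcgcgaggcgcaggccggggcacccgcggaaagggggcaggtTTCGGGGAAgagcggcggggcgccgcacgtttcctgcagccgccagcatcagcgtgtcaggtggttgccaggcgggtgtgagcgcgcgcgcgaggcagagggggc
LONRF2: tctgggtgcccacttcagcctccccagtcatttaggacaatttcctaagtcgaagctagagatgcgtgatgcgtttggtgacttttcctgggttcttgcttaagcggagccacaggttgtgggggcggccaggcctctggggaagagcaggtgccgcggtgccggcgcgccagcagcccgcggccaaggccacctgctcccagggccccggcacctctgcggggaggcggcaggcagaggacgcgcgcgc
The CISH stretch held 4 STAT matches, the first bases of which lay 241, 230, 129 and 112 bases before the start. CHAC1 held 1 C/EBP-ATF match at 209 bases before the start, RASGRP1 held 1 STAT match at 105 bases, and LONRF2 held neither. None of the 4 held the palindromic estrogen response element, searched as the full consensus on both strands with any bases in its middle. In windows of 300 bases (250 before to 50 after the start), that element was in 18 of 27305 promoters in the table (0.0659%) and in none of the promoters of the 203 risen genes that had an entry. The C/EBP-ATF element was in 8 of those 203 (3.94%), against 1.7% of the 10904 tested genes with an entry and 3.67% of all promoters. The 8 were CHAC1, FIGNL1, HERPUD1, HRK, LINC01133, NCOA7, PLEKHH3 and SLC3A2. The STAT element was in 10 of 203 (4.93%), against 6.34% of tested genes and 7.88% of all promoters. These matches describe the letters in the windows. The STAT and C/EBP-ATF elements were chosen after the values were seen.

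Other well-expressed genes with large rises spanned several functions. SLC22A3, a transporter of organic cations, rose from 21.5, 33.6 and 35.4 CPM to 90.3, 96.5 and 87.2 CPM (1.60, SE 0.19, edgeR adjusted p = 1.13e-05). ST6GALNAC2, which adds sialic acid to glycoproteins, rose from 3.2, 4.49 and 3.91 CPM to 11.5, 10.9 and 11.5 CPM (1.55, SE 0.26, edgeR adjusted p = 0.00129). Both genes kept their calls whichever library was left out. Their groups did not overlap, which was a condition for choosing the largest rises and falls. CRTC2, a coactivator of CREB, stood at 6.41, 1.67 and 5.74 CPM at 0 h and at 12.9, 15.9 and 18.7 CPM at 8 h (1.76, SE 0.30), and its change was 1.39 without 0 h replicate 2, its lowest sample. SLC19A2, a thiamine transporter, was at 4.71, 1.41 and 3.91 CPM and then at 8.47, 11.6 and 8.09 CPM (1.46, SE 0.34, edgeR adjusted p = 0.0182). It lost its call without 0 h replicate 2 and without 8 h replicate 2, with an adjusted p of up to 0.107. A gene without a symbol, ENSG00000243107, was at 6.01, 0 and 2.81 CPM at 0 h and at 8.93, 15.6 and 11 CPM at 8 h (1.93, SE 0.46), and lost its call without 0 h replicate 3 and without 8 h replicate 2 (adjusted p of up to 0.127). A further row that no annotated gene could name rose by 1.48.

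**Figure D2:**
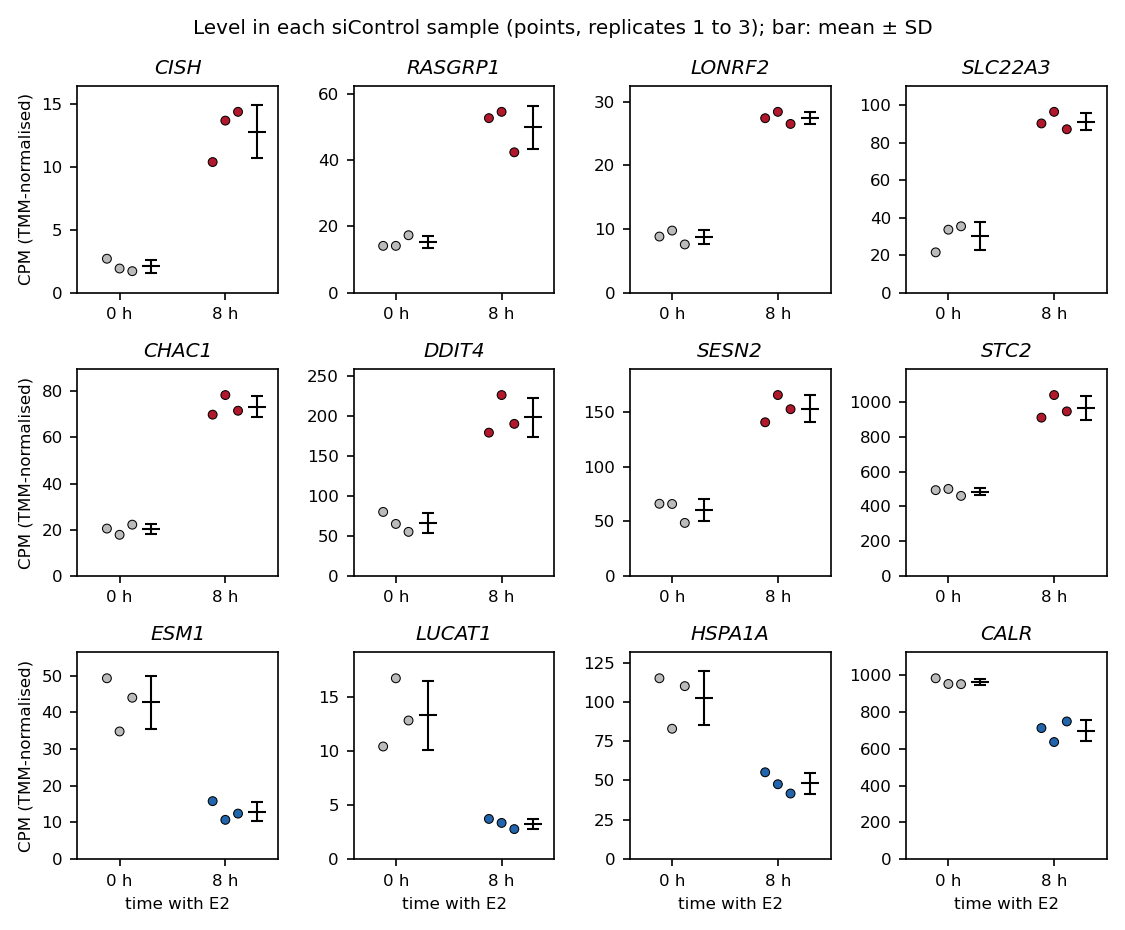
CPM of single genes in each siControl sample at 0 h and 8 h, 1 panel per gene with its own vertical axis from 0. Points are the samples and the bar beside them is their mean with its SD, so CHAC1 at 8 h (69.9 to 78.4 CPM) can be seen above its 0 h samples (17.8 to 22.2 CPM).

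The ATF4 stress response held 11 rises among 21 measured genes. ATF4 is a transcription factor whose protein is made when amino acids run short or proteins misfold, and its targets bring in amino acids, restrain mTORC1 and, under lasting stress, promote cell death. The share of rises was 52.4%, against 1.78% of all genes, and 10 members did not pass the test. The median change of the 21 was 0.58, and 20 of the 21 were above 0. DDIT4, an inhibitor of mTORC1, went from 79.9, 64.9 and 55 CPM to 179, 226 and 190 CPM (1.57, SE 0.13, edgeR adjusted p = 1.38e-07). SESN2, a leucine sensor that also restrains mTORC1, went from 66.2, 66 and 48.6 CPM to 141, 166 and 153 CPM (1.35, SE 0.12, edgeR adjusted p = 1.38e-07). In both genes the lowest 8 h sample was well above the highest 0 h sample. The other members that rose were CHAC1, the hormone STC2, the transcription factors DDIT3, CEBPB and CEBPG, the tRNA exporter XPOT, the growth factor VEGFA, the peptide ADM2 and the pseudokinase TRIB3. DDIT3 (CHOP), known for its role in stress-induced cell death, went from 42.9, 52.2 and 36 CPM to 103, 93.7 and 96 CPM (1.16, SE 0.12, edgeR adjusted p = 3.39e-06). ATF4 itself was at 727, 774 and 649 CPM at 0 h and at 880, 843 and 835 CPM at 8 h, a difference of 0.25 (SE 0.10) that did not pass the test (edgeR adjusted p = 0.204). ASNS, the asparagine synthetase and a standard ATF4 target, differed by 0.17 (SE 0.10, edgeR adjusted p = 0.394), and ATF5 by -0.02 (SE 0.12). DDIT3, ATF4, ASNS and ATF5 are given after their values were seen. The count of rises was 8 to 10 when 1 library was left out.

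Of 18 measured amino acid transporters 6 rose (33.3%, against 1.78% of all genes) and 12 did not pass the test, with a median change of 0.28. The count was also 6 without 0 h replicate 2. SLC38A2, which imports neutral amino acids, went from 519, 519 and 549 CPM to 852, 1030 and 902 CPM (0.81, SE 0.09, edgeR adjusted p = 3.39e-06). SLC3A2, the heavy chain that carries SLC7A5 and SLC7A11 to the cell surface, went from 469, 421 and 460 CPM to 706, 740 and 773 CPM (0.72, SE 0.09, edgeR adjusted p = 4.82e-05). Both were abundant, and the samples of each group lay close together. SLC1A4, an exchanger of serine and alanine, rose by 0.65 (SE 0.11), and SLC7A11, which imports cystine for glutathione synthesis, rose by 0.46 (SE 0.09). SLC7A5, a transporter of large neutral amino acids, and SLC6A9, a glycine transporter, were the other 2. The enzymes that use these amino acids did not show such calls. With edgeR none of 15 enzymes of serine, glycine and folate metabolism was called (5 had an unadjusted p under 0.05, and DESeq2 called 2 higher). None of 20 aminoacyl-tRNA synthetases was called either (4 had an unadjusted p under 0.05, and DESeq2 called none).

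**Figure D3:**
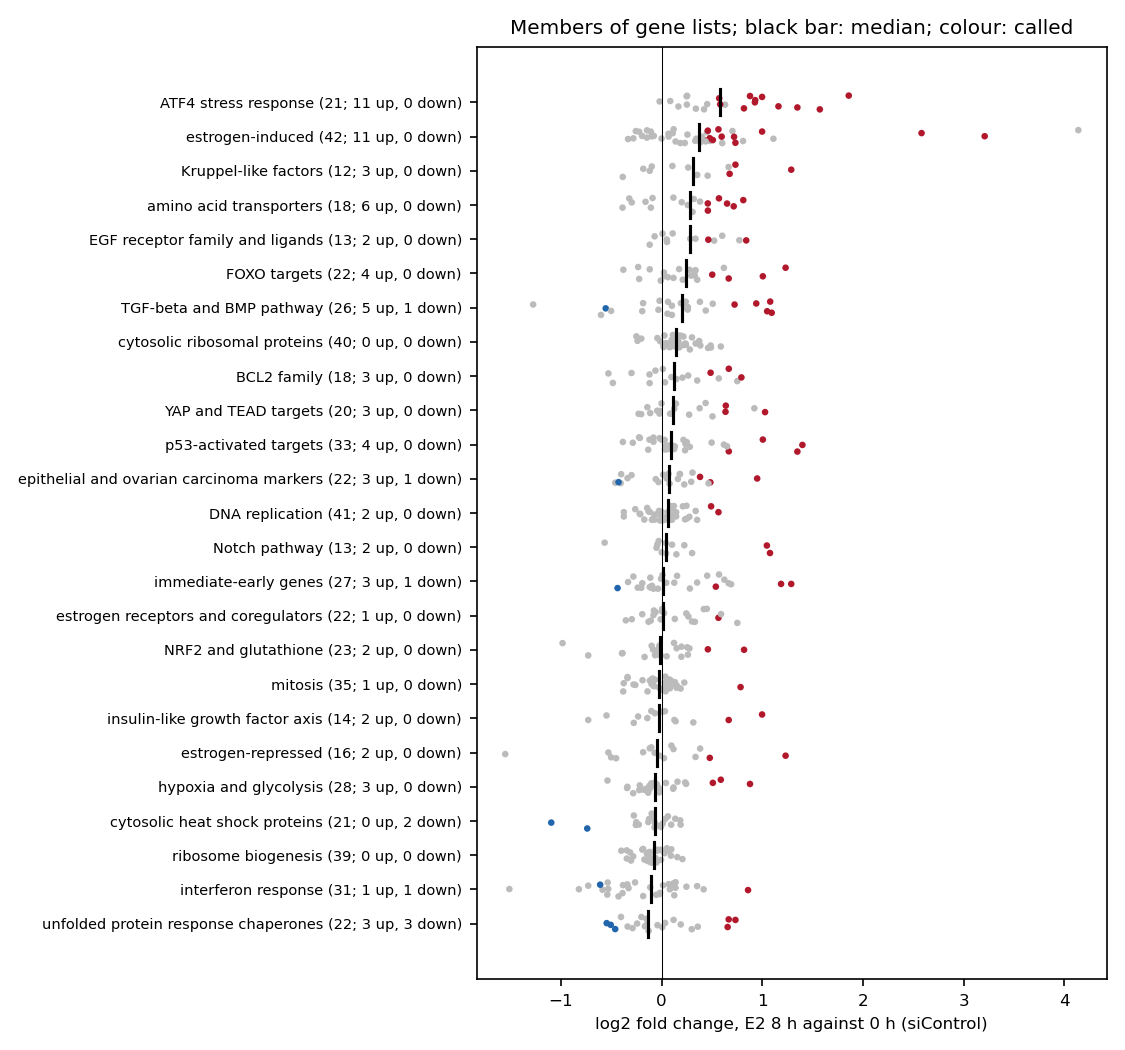
Log2 fold changes at 8 h against 0 h of the measured members of chosen gene lists, 1 point per gene and a bar at the median. Points coloured as called passed edgeR's test at an adjusted p under 0.05, and the median of the ATF4 stress response stands at 0.58.

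Of 22 measured genes of the unfolded protein response in the endoplasmic reticulum, 3 rose (13.6%, against 1.78% of all genes) and 3 fell (13.6%, against 0.823%). The other 16 did not pass the test, and the median was -0.14. XBP1, the transcription factor that drives this response and a known estrogen target, went from 77.6, 75.1 and 78.7 CPM to 117, 135 and 133 CPM (0.73, SE 0.09, edgeR adjusted p = 2.82e-05). HERPUD1, which serves the degradation of misfolded proteins, rose by 0.67 (SE 0.11, edgeR adjusted p = 0.00125), and SYVN1, the ubiquitin ligase of that pathway, by 0.66 (SE 0.15, edgeR adjusted p = 0.02). SYVN1 lost its call without 0 h replicate 2, 8 h replicate 2 or 8 h replicate 3, with an adjusted p of up to 0.126. The 3 that fell are folding factors of the lumen. SDF2L1 went from 107, 97.4 and 105 CPM to 75.6, 64.6 and 71.5 CPM (-0.55, SE 0.10, edgeR adjusted p = 0.00179). CALR, the calcium-binding chaperone calreticulin, went from 984, 953 and 952 CPM to 713, 637 and 749 CPM (-0.46, SE 0.09, edgeR adjusted p = 0.00552). PDIA4, a disulfide isomerase, went from 103, 78.1 and 106 CPM to 69.3, 62.9 and 70.4 CPM (-0.51, SE 0.12, edgeR adjusted p = 0.0193). In each of the 3 the 8 h samples lay below all 0 h samples. CALR lost its call without 8 h replicate 2 (adjusted p = 0.0752), and PDIA4 without 0 h replicate 3 or 8 h replicate 2 (up to 0.114), so that 1 fall was left without 8 h replicate 2.

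Among 21 cytosolic heat shock genes, HSPA1A and HSPA1B, which encode nearly identical HSP70 proteins, were lower (9.52%, against 0.823% of all genes). HSPA1A went from 115, 82.9 and 110 CPM to 55.2, 47.6 and 41.7 CPM (-1.10, SE 0.13, edgeR adjusted p = 1.94e-05). HSPA1B went from 18.7, 23.2 and 18.9 CPM to 10.8, 10.7 and 14.9 CPM (-0.74, SE 0.18, edgeR adjusted p = 0.0225). It lost its call in 3 of the 6 fits, without 0 h replicate 2, 8 h replicate 1 or 8 h replicate 2 (adjusted p of up to 0.152). Because the genes are near copies, the split of reads between them is uncertain.

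FASN, the fatty acid synthase, fell from 653, 543 and 568 CPM to 445, 449 and 455 CPM (-0.39, SE 0.08, edgeR adjusted p = 0.0118), the 1 call among 14 fatty acid genes. Its call was lost without 8 h replicate 2 (adjusted p = 0.0572).

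ESR1 and several textbook estrogen targets did not pass the test or were not detectable. ESR1 was at 57.2, 78.1 and 66.3 CPM at 0 h and at 62.7, 59.6 and 64.4 CPM at 8 h, a difference of -0.11 (SE 0.12, edgeR adjusted p = 0.7) with overlapping groups. PGR, the progesterone receptor, and TFF1 and CXCL12, secreted proteins known from breast cancer cells, had no count in any of the 6 samples. A total of 0 counts over the 6 samples allows a level of up to 0.0561 CPM (3 counts), and this limit covers counting error only. ESR2, the second estrogen receptor, had 4 counts, all in 0 h replicate 3. GREB1, an ESR1 cofactor, was low, at 2.4, 1.15 and 0.489 CPM and then at 4.75, 2.23 and 2.05 CPM (1.11, SE 0.48, edgeR adjusted p = 0.23). CCND1, the cyclin of early G1, was at 617, 471 and 495 CPM and then at 621, 618 and 618 CPM (0.23, SE 0.10, edgeR adjusted p = 0.266), all 8 h samples above the 0 h samples by a narrow margin.

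Of 42 measured genes known to be induced by estrogen, mostly from breast cancer cells, 11 rose (26.2%, against 1.78% of all genes) and 31 did not pass the test, with a median of 0.37 and 31 of 42 above 0. STC2, a secreted glycoprotein that is also an ATF4 target, went from 493, 500 and 460 CPM to 910, 1040 and 946 CPM (1.00, SE 0.08, edgeR adjusted p = 1.38e-07). TFAP2C, the AP-2 gamma factor that cooperates with ESR1, went from 190, 204 and 198 CPM to 286, 292 and 298 CPM (0.56, SE 0.09, edgeR adjusted p = 0.000663). Groups were tight in both genes and did not overlap. FHL2, a coactivator with LIM domains, rose by 0.60 (SE 0.10) and was chosen after its values were seen. The other members were CISH, XBP1, SLC7A5, the glucose transporter SLC2A1, the carbonic anhydrase CA12, the transcription factor MYBL1, the repair factor RBBP8 and the ceramide enzyme UGCG. CA12 was near the floor at 0 h (0.1, 0 and 0.855 CPM) and reached 3.59, 1.67 and 3.69 CPM at 8 h. The count was 6 without 0 h replicate 2 and 7 without any one of the 8 h replicates. SLC2A1 was called in 3 of the 6 fits and RBBP8 in none (adjusted p of up to 0.106 and 0.156).

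Of 16 measured genes known to be repressed by estrogen, none was called lower by edgeR or DESeq2 (2 were lower at an unadjusted p under 0.05). By edgeR 2 were called higher (12.5%, against 1.78% of all genes), and the median of the list was -0.05. TXNIP, an inhibitor of thioredoxin and of glucose uptake, went from 20.8, 17.7 and 23.7 CPM to 47.8, 59.5 and 39 CPM (1.23, SE 0.17, edgeR adjusted p = 8.07e-05). EFNA1, a ligand of Eph receptors, went from 56.5, 64.4 and 59.5 CPM to 82.4, 80.7 and 88 CPM (0.48, SE 0.11, edgeR adjusted p = 0.0175). EFNA1 kept its call in 3 of the 6 fits, with an adjusted p of up to 0.0855 without 0 h replicate 3, 8 h replicate 1 or 8 h replicate 3.

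Transcription factors of growth control were among the rises. MYC was at 16.5, 5.77 and 16.5 CPM at 0 h and at 26.4, 35.8 and 26.9 CPM at 8 h (1.19, SE 0.23, edgeR adjusted p = 0.00473). KLF4, an epithelial differentiation factor, was at 26.6, 11.9 and 20 CPM and then at 46, 51.9 and 46.3 CPM (1.29, SE 0.18, edgeR adjusted p = 0.000145). In both genes 0 h replicate 2 was the lowest sample, and without it the change was 0.85 for MYC and 1.04 for KLF4, both still called. They belong to the 27 measured immediate-early genes, of which 3 rose, the third being the AP-1 subunit FOSL2, and 1 fell, the phosphatase DUSP5. FOSL2 lost its call without 0 h replicate 2 (adjusted p = 0.0523) or 8 h replicate 2, and DUSP5 without 0 h replicate 3 or 8 h replicate 2 (adjusted p of up to 0.0683). Without 0 h replicate 1 that list held 5 rises. KLF9 (0.73, SE 0.18) and KLF13 (0.68, SE 0.16) also rose among 12 Kruppel-like factors. Their calls were less stable, holding in 2 and 1 of the 6 fits (adjusted p of up to 0.126 and 0.133), and KLF4 was the 1 call of that list that held without 0 h replicate 2. ELF3, an epithelial ETS factor, went from 179, 209 and 196 CPM to 367, 380 and 381 CPM (0.95, SE 0.10, edgeR adjusted p = 3.16e-06), with a wide gap between the groups. IRF1, which activates interferon-stimulated genes, went from 45, 67.6 and 56.4 CPM to 110, 90.6 and 105 CPM (0.86, SE 0.14, edgeR adjusted p = 0.000814), while 1 other of 31 interferon response genes was called, the antiviral RSAD2, which was lower (-0.61, SE 0.15). RSAD2 kept its call in 2 of the 6 fits (adjusted p of up to 0.105). The median of the interferon list was -0.11, with 12 of the 31 genes above 0. At an unadjusted edgeR p under 0.05, 1 gene of that list was higher and 8 were lower, and DESeq2 called 1 higher and 2 lower.

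Ligands, receptors and inhibitors of growth factor pathways also changed. Of 26 measured genes of TGF-beta and BMP signalling, 5 rose (19.2%, against 1.78% of all genes) and 1 fell (3.85%, against 0.823%), with a median of 0.20. Among the ligands, INHBB, a subunit of activin B and inhibin B, went from 117, 92.6 and 133 CPM to 227, 236 and 270 CPM (1.09, SE 0.13, edgeR adjusted p = 1.13e-05). BMP2 was low, between 3.59 and 4.21 CPM at 0 h and between 4.46 and 10.8 CPM at 8 h, and was called (1.05, SE 0.28). Among inhibitors, the decoy receptor BAMBI went from 43.7, 38.1 and 47.4 CPM to 82, 87.8 and 78.2 CPM (0.94, SE 0.11, edgeR adjusted p = 1.62e-05). Both INHBB and BAMBI had clearly separate groups. The receptor TGFBR2 and the signal carrier SMAD9 rose by 0.72 (SE 0.19) and 1.08 (SE 0.25), and ID2, a target of the pathway that blocks other factors, was lower (-0.56, SE 0.14). TGFBR2 and SMAD9 were called in 2 of the 6 fits each and ID2 in 3 (adjusted p of up to 0.167, 0.0835 and 0.24). The list's count of rises was 2 without 0 h replicate 1 or 0 h replicate 2 and 3 without 8 h replicate 1 or 8 h replicate 3.

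INSR, the insulin receptor, rose from 106, 101 and 96.4 CPM to 149, 169 and 163 CPM (0.67, SE 0.11, edgeR adjusted p = 0.000874), 1 of 2 rises with STC2 among 14 genes of the insulin-like growth factor axis. Of 13 genes of the EGF receptor family, the ligand HBEGF (0.46, SE 0.09) and the receptor inhibitor ERRFI1 (0.84, SE 0.21) rose, and 1 or 2 of them held in each fit that left out a library. ERRFI1 was called in 2 of the 6 fits, and the fit without 0 h replicate 2 was among those that lost it (edgeR adjusted p = 0.148). HES1, a repressor that Notch signalling induces, went from 120, 72.8 and 143 CPM to 261, 192 and 242 CPM (1.04, SE 0.18, edgeR adjusted p = 0.00159). NOTCH1, the receptor, went from 9.51, 10.9 and 5.74 CPM to 16.7, 19 and 19.5 CPM (1.08, SE 0.21, edgeR adjusted p = 0.00522). These were the 2 calls among 13 Notch pathway genes, and both held in all 6 fits. Of 20 YAP and TEAD targets, AJUBA, a LIM-domain regulator of the Hippo pathway (1.03, SE 0.14), CRIM1, a BMP-binding membrane protein (0.64, SE 0.13), and F3, tissue factor (0.63, SE 0.14), rose. F3 lost its call without 0 h replicate 2 or 8 h replicate 2 (adjusted p of up to 0.0752), and the list held 5 rises without 0 h replicate 1.

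Of 18 measured members of the BCL2 family, which governs apoptosis, 3 rose (against 1.78% of all genes), and the median change was 0.12. The 3 are BH3-only proteins, which oppose the survival members of the family. Other pro-apoptotic members had values on the other side and were not called, among them the BH3-only proteins BIK (-0.53, unadjusted p = 0.0102) and BAD (-0.48, unadjusted p = 0.0136), both given after their values were seen. BBC3 (PUMA) went from 54.1, 47.1 and 50.5 CPM to 79.4, 88.1 and 73.4 CPM (0.67, SE 0.11, edgeR adjusted p = 0.00124). HRK went from 28.4, 43.6 and 41.8 CPM to 73.4, 58.7 and 64.4 CPM (0.79, SE 0.15, edgeR adjusted p = 0.00483). PMAIP1 (NOXA) went from 255, 223 and 257 CPM to 349, 353 and 328 CPM (0.49, SE 0.10, edgeR adjusted p = 0.00681). No group overlapped in the 3 genes, and each call held in all 6 fits. Of 33 genes that p53 is known to activate, 4 rose (12.1%, against 1.78% of all genes), with a median of 0.09: SESN2, BBC3, the growth arrest gene GADD45A (1.00, SE 0.16) and the cytokine GDF15 (1.40, SE 0.38). SESN2 is also an ATF4 target, and GDF15 was called in 1 of the 6 fits. The standard p53 targets CDKN1A, a cell cycle inhibitor, and MDM2, a p53 ubiquitin ligase, did not pass the test, with differences of 0.03 (SE 0.17) and 0.09 (SE 0.14).

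Of cell cycle genes, the lists of G1 control, DNA replication and mitosis had 4.55%, 4.88% and 2.86% of members called higher, against 1.78% of all genes, and no call in them held in every fit that left out a library. Of 22 genes of G1 control, the inhibitor CDKN1B was called (0.50, SE 0.13, edgeR adjusted p = 0.0408), and it lost its call without 0 h replicate 2, 8 h replicate 2 or 8 h replicate 3 (adjusted p of up to 0.206). Of 41 DNA replication genes, PCNA, the replication clamp, and GINS2, a helicase subunit, were called, with adjusted p of 0.0488 and 0.0474. Neither was called without 0 h replicate 2, 0 h replicate 3, 8 h replicate 1 or 8 h replicate 2. Of 35 mitosis genes the centromere histone CENPA was called (0.78, SE 0.17), and not without 0 h replicate 2 or 8 h replicate 2 (adjusted p of up to 0.0944). The medians of the replication and mitosis lists were 0.06 and -0.03. No member of the G1, replication and mitosis lists was called lower by edgeR. At an unadjusted edgeR p under 0.05, 1 mitosis gene was higher and 5 were lower, and DESeq2 called 1 higher and 2 lower. The G1 and replication lists each had 4 genes higher and 1 lower at that unadjusted p. Growth-related lists of 39 ribosome biogenesis genes, 40 cytosolic ribosomal proteins and 22 nucleotide synthesis genes held no call in edgeR. In these, 5 (all lower), 7 (all higher) and 3 (2 higher, 1 lower) genes had an unadjusted p under 0.05. DESeq2 called 2 (lower), 1 (higher) and 0. Their medians were -0.08, 0.14 and -0.05, with 9 of 39, 35 of 40 and 6 of 22 genes above 0. The 23 Wnt pathway, 17 circadian clock and 14 histone genes held no edgeR call either. At an unadjusted p under 0.05 there were 2, 4 and 3 genes, and DESeq2 called 1 (higher), 1 (higher) and 1 (lower).

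Of 22 measured genes in the epithelial and ovarian carcinoma list, 3 rose (13.6%), 1 fell (4.55%) and 18 did not pass the test, with a median of 0.07. At an unadjusted edgeR p under 0.05, 5 were higher and 4 lower, and DESeq2 called 3 higher and 2 lower. ELF3, the splicing factor ESRP1 (0.38, SE 0.10) and the adhesion protein CDH1 (0.48, SE 0.13) rose, and the lineage factor PAX8 was lower. PAX8 went from 126, 149 and 137 CPM to 112, 96.1 and 98 CPM (-0.43, SE 0.10, edgeR adjusted p = 0.0193), with no overlap. ESRP1, CDH1 and PAX8 were called in 1, 2 and 3 of the 6 fits, and without 0 h replicate 2 none of the 3 was called (adjusted p = 0.169, 0.232 and 0.0997). In the hypoxia and glycolysis list VEGFA, SLC2A1 and the peptide ADM rose among 28 genes, whose median was -0.07. ADM was called in 2 of the 6 fits, with an adjusted p of up to 0.114, and not without 0 h replicate 2 (0.0634). Some further lists, not all of them given here, also held a call. SDHD rose among 35 respiratory chain genes, SLC7A11 and the exporter ABCC1 among 23 NRF2 and glutathione genes, and COL4A1 among 21 matrix genes. RELB was lower among 18 NF-kB genes. SDHD, COL4A1 and RELB each lost the call in at least 3 of the 6 fits, and ABCC1 without 0 h replicate 2 or 8 h replicate 2. TXNIP, INSR, GADD45A and CDKN1B were the 4 rises among 22 FOXO targets, whose median was 0.24. Together the lists held 65 of the 273 rises and 12 of the 126 falls, beside 867 of the 15318 genes tested. A gene can be in several lists.

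Among the falls, ESM1 had the smallest adjusted p. ESM1 (endocan) went from 49.3, 34.8 and 44 CPM to 15.8, 10.7 and 12.4 CPM (-1.72, SE 0.16, edgeR adjusted p = 5.48e-07), so that every 8 h sample was below every 0 h sample by a wide margin. LUCAT1, a long noncoding RNA, went from 10.4, 16.7 and 12.8 CPM to 3.71, 3.34 and 2.77 CPM (-2.02, SE 0.25, edgeR adjusted p = 2.04e-05). PPP1R10, a regulatory subunit of protein phosphatase 1 in the nucleus, went from 213, 255 and 225 CPM to 132, 104 and 119 CPM (-0.96, SE 0.12, edgeR adjusted p = 1.81e-05). All of these kept their calls in the 6 fits. CCBE1, which helps lymphatic growth, went from 95.7, 80.5 and 76.4 CPM to 52, 38.9 and 49.6 CPM (-0.85, SE 0.13, edgeR adjusted p = 0.000663), and the groups did not overlap.

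Several of the other large falls had 0 h replicate 2 as their highest sample. COL27A1, a fibrillar collagen, was at 26.7, 48.1 and 43.1 CPM and then at 19.7, 15.6 and 13.6 CPM (-1.27, SE 0.21), P2RY11, a nucleotide receptor, was at 16.3, 27.3 and 17.6 CPM and then at 8.93, 4.9 and 9.73 CPM (-1.37, SE 0.26), and KCNJ14, a potassium channel, was at 21.1, 41.6 and 31 CPM and then at 11, 11.7 and 17.1 CPM (-1.23, SE 0.23). Without that library their changes were -1.09, -1.10 and -0.96, all still called. WNK4, a kinase that controls ion transport (-1.80, SE 0.40), and AVIL, an actin-binding protein (-1.37, SE 0.31), lost their calls without it (edgeR adjusted p = 0.0936 and 0.122). So did ENSG00000266086 (-1.23, SE 0.27), EFNB2, a ligand of Eph receptors (-1.06, SE 0.26), and the pseudogene ST13P11 (-1.09, SE 0.23), with adjusted p of 0.102, 0.113 and 0.0707. Each also lost its call without other libraries. WNK4, AVIL and ENSG00000266086 were called in 3 of the 6 fits, ST13P11 in 4 and EFNB2 in 1. NPIPB3 had the lowest value among called genes with an average log2 CPM of at least 3 (-2.83, SE 0.76), but it belongs to a multi-copy family in which reads are hard to place, and it was called in 2 of the 6 fits. A second row for SRP19, kept apart in the deposited table, was lower by the fit (-1.33, SE 0.19) and is uncertain, since reads of 1 gene are split over both rows.

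The 2 h samples show how much of the 8 h change was already there. CHAC1, SESN2 and DDIT4 were near their 0 h level at 2 h and high at 8 h, while CISH, RASGRP1 and LONRF2 were already high at 2 h. Between 8 h and 2 h, 99 genes were higher at 8 h (0.646%) and 58 were lower (0.379%) by edgeR, 1.02% in all. CHAC1 was at 26.2, 21.1 and 18.2 CPM at 2 h, and its difference between 8 h and 2 h was 1.75 (SE 0.15, edgeR adjusted p = 1.5e-07). SESN2 was at 58.7, 51.7 and 49.4 CPM at 2 h (difference 1.53, SE 0.12), and DDIT4 at 76, 66.5 and 62 CPM (1.54, SE 0.13). These 3 genes had 2 h samples in the range of their 0 h samples or close to it. In the ATF4 list 9 of 21 genes were higher at 8 h than at 2 h, with a median difference of 0.46, beside a median change from 0 h to 2 h of 0.03. Some members of that list had intermediate values at 2 h: STC2 was at 586, 652 and 630 CPM, above all its 0 h samples (0.36, SE 0.08, edgeR adjusted p = 0.0702), and CEBPB differed from 0 h by 0.47 (SE 0.11, edgeR adjusted p = 0.0803). The 2 h and 8 h changes share the 0 h samples, and are given side by side.

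CISH was at 18.5, 16.6 and 22.7 CPM at 2 h, and its difference between 8 h and 2 h was -0.58 (SE 0.18, edgeR adjusted p = 0.136). RASGRP1 was at 35.8, 37.9 and 37.4 CPM at 2 h (difference 0.43, SE 0.13, adjusted p = 0.11), and LONRF2 at 20.7, 21.2 and 28.2 CPM (0.23, SE 0.16, adjusted p = 0.621). TFAP2C was at 338, 313 and 327 CPM at 2 h, all above its 8 h samples, with a difference of -0.16 (SE 0.09, adjusted p = 0.499) that did not pass the test. None of these 4 genes was called between 2 h and 8 h. In the estrogen-induced list 2 of 42 genes were higher at 8 h than at 2 h, the median change from 0 h being 0.22 at 2 h and 0.37 at 8 h. TXNIP (difference 1.12, SE 0.17), ELF3 (0.98, SE 0.10), EFNA1 (0.76, SE 0.11) and INSR (0.69, SE 0.11) were higher at 8 h than at 2 h.

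Falls between 2 h and 8 h included ESM1, PPP1R10 and lumenal chaperones. ESM1 was at 47.6, 44.8 and 40 CPM at 2 h (difference between 8 h and 2 h -1.77, SE 0.16, edgeR adjusted p = 6.59e-07), within its 0 h range. PPP1R10 was at 164, 179 and 171 CPM at 2 h, between its 0 h and 8 h samples (difference -0.53, SE 0.12, edgeR adjusted p = 0.0222). Of 22 unfolded protein response genes 5 were lower at 8 h than at 2 h and 1 was higher. PDIA4, at 127, 117 and 115 CPM at 2 h, had a difference of -0.83 (SE 0.12, edgeR adjusted p = 0.000319). HSPA5, the main lumenal HSP70 chaperone, named after its values were seen, was at 1710, 1600 and 1730 CPM at 2 h and at 1300, 1360 and 1320 CPM at 8 h (-0.34, SE 0.08, edgeR adjusted p = 0.0251). CEACAM6, an adhesion protein, had a difference of -1.11 (SE 0.17), and KRTAP2-3, a keratin-associated protein, of -1.02 (SE 0.20), both called. MIR503HG, the host transcript of a microRNA cluster, was lower in each 2 h sample (7.95, 14.7 and 15 CPM) than in any 0 h sample (17.1, 27.1 and 22.4 CPM) and reached 46.4, 36 and 48.5 CPM at 8 h (difference from 2 h 1.80, SE 0.26). Leaving out 1 library gave 47 to 58 genes higher at 8 h than at 2 h, with each library lowering the count, and 30 to 53 lower, the lowest without 2 h replicate 2.

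**Figure D4:**
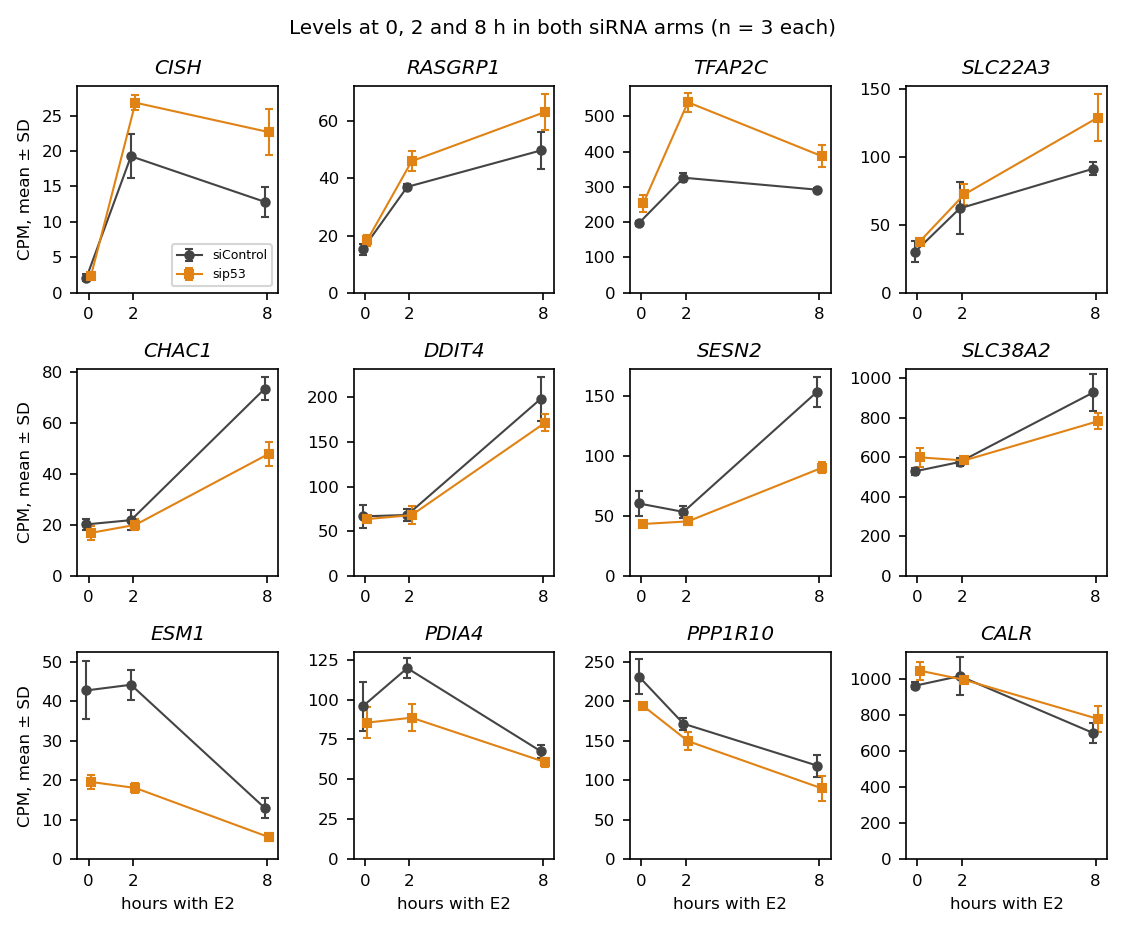
CPM of single genes (vertical axis from 0) at 0, 2 and 8 h of E2 (horizontal axis), 1 panel per gene, as mean and SD of 3 samples in siControl (circles) and sip53 (squares). In siControl CISH is high at 2 h (16.6 to 22.7 CPM), while CHAC1 at 2 h (18.2 to 26.2 CPM) is close to its 0 h level.

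The sip53 arm was compared over the same interval, because the series asks about p53 and estrogen receptor activity. In sip53 cells 238 genes rose (1.55%) and 181 fell (1.18%) at 8 h. The 2 arms share no library, and 177 genes were called in both in the same direction, which is 44.4% of the siControl calls and 42.2% of the sip53 calls. Of the 399 genes called in siControl, 386 had the same sign in sip53, and none was called in the opposite direction. Genes that rose in siControl had a median of 0.70 there and 0.50 in sip53. Genes that rose in sip53 had a median of 0.737 there and 0.575 in siControl, so each choice favoured the arm it was made in. The test of the difference between the arms called 0 of 15318 genes with edgeR. At an unadjusted p under 0.05 there were 583 genes, a smaller share than the 0.05 expected if no gene differed. DESeq2 called 2 genes, both with a lower change in siControl.

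Values of named genes in the 2 arms are set side by side here, since none passed the test of the difference. CISH rose by 3.29 (SE 0.21) in sip53 against 2.58 in siControl, RASGRP1 by 1.79 against 1.71, and STC2 by 1.08 against 1.00. CHAC1 rose by 1.51 in sip53, DDIT4 by 1.43 and SESN2 by 1.06, and ESM1 fell by 1.82. Of the 21 ATF4 list genes 8 rose in sip53, with a median of 0.39. CCND1, not called in siControl (0.23), rose by 0.40 (SE 0.10, edgeR adjusted p = 0.0385) in sip53, and its difference between the arms was not called. TXNIP had a change of 0.18 (SE 0.17, edgeR adjusted p = 0.694) in sip53 against 1.23 in siControl. The difference of 1.06 (SE 0.237) had an unadjusted p of 0.000186 and an adjusted p of 0.999, so it did not pass the test over all genes. SLC7A11 (0.09 in sip53 against 0.46) and TGFBR2 (-0.01 against 0.72) had differences between the arms of 0.37 (SE 0.127) and 0.73 (SE 0.258), which did not pass either (adjusted p = 0.999 for both).

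**Figure D5:**
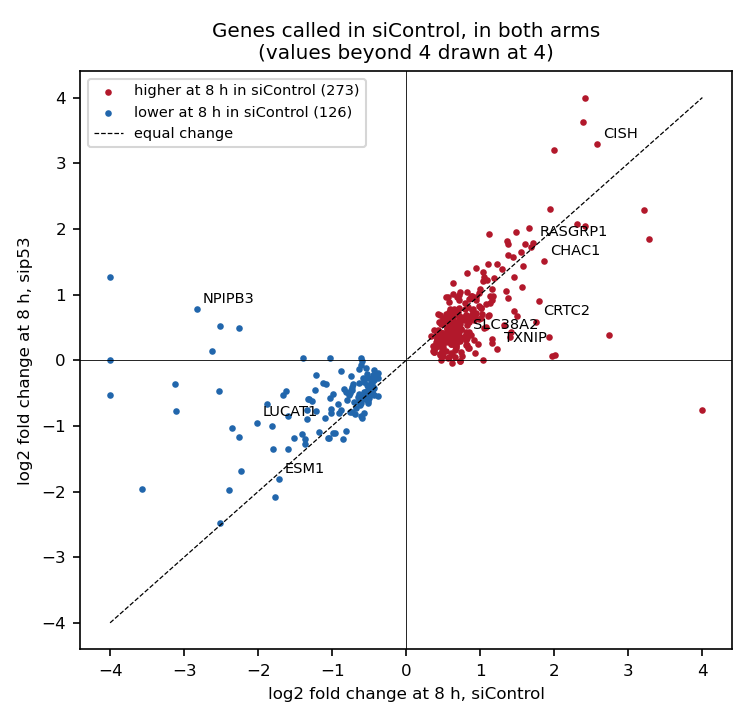
Log2 fold change at 8 h against 0 h in siControl cells (horizontal axis) and in sip53 cells (vertical axis) for the 399 genes called in siControl, with values beyond 4 drawn at the edge. Colour gives the direction in siControl and the dashed line is equal change in both arms. Nearly all points lie in the quadrants of equal sign, which held 386 of the 399.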

How the data were processed

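Libraries were made with the QuantSeq 3' FWD kit, per the labels' protocols, which reads transcript ends, so long transcripts do not collect more reads. RSEM expected counts for sets of transcripts make up the table deposited by the authors. RSEM 1.3.3, Bowtie2, cutadapt, MultiQC and build hg19 are named in the submitters' processing notes. For the annotation and the strand setting, nothing is given in the sources used here. All expected counts were whole numbers as deposited. Of 57736 rows, 52673 were named by a single GENCODE v29 gene and 267 by a majority of transcripts, and unnamed rows held 0.635% of counts. Coordinates are those of GRCh38, and genes were matched by transcript and symbol.

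edgeR 4.0.16 (R 4.3.3) was run with TMM scaling, filterByExpr (minimum count 10) and a quasi-likelihood fit to all 18 samples with 1 coefficient per group. A gene was called at a Benjamini-Hochberg adjusted p under 0.05 over 15318 genes. Contrasts were 8 h against 0 h, 8 h against 2 h and the difference between arms. Alternatives were DESeq2 1.42.0, other scalings, filters and fits, and leaving out each replicate. The pipeline was tested on simulated data. The common dispersion was 0.0232, a biological coefficient of variation of 15.2%. Samples of a group differed beyond counting noise (chi-square per degree of freedom 6.39 to 22.9 in the 6 samples), so none was a copy.

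The comparison, its gene lists and the rule for named genes were chosen with earlier results of these data known. The rule took ESR1, PGR, GREB1, CCND1, MDM2 and CDKN1A. It added the 12 largest rises and 12 largest falls without overlap among genes whose average log2 CPM reached 3, and the 5 smallest adjusted p-values per direction. It also took up to 4 called members per list and direction, and the 5 largest called differences between 8 h and 2 h per direction. There were 43 lists, from textbook knowledge, and 3 older symbols in them were updated. Lists were described by counts and medians, with no test. Promoter windows came from RefSeq (GRCh38.p14), with an entry for 70 of the 95 named genes. Results for some single genes are not reported here.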

Additional observations from a re-analysis of the deposited data

How the results depend on the processing

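At 8 h against 0 h the count of rises was 273 and of falls 126. Without the filter on low counts they were 451 and 338, in a fit to the 6 samples alone 91 and 40, and in a fit to the 9 siControl samples alone 136 and 62. Testing against a fold of 1.2 (glmTreat) gave 87 and 32, and DESeq2 396 and 285. Leaving out 1 library gave 139 to 443 rises and 35 to 296 falls. The other scalings and a minimum count of 30 stayed within 1.5 times, with 252 to 279 rises and 129 to 144 falls. The share of rises among calls was 68.4%, and was 57.2% without the filter, 58.1% with DESeq2 and 80.6% without 8 h replicate 2. Same-numbered samples at 0 h and 8 h correlated at -0.21, -0.364 and -0.149 in their deviations, and other pairs at -0.113 to 0.323. With 3 samples per group, these values cannot show whether same-numbered samples were paired, and the labels do not say. With the replicate block the fit called 255 and 117 and kept 353 of the 399 calls. With the block in the 6 samples alone it called 25 and 11. At 8 h against 2 h the counts of 99 and 58 became 188 and 125 without the filter and 200 and 150 with DESeq2, and 47 to 58 and 30 to 53 when 1 library was left out. The replicate block gave 96 and 54. The difference between arms, 0 and 0, became 25 higher and 29 lower without the filter and 0 and 2 with DESeq2, and stayed at 0 when 1 library was left out. One of those 2 was CTAGE8, of a multi-copy family. Over all alternatives, 1192 values of named genes stayed on their side of the threshold, 327 lost it and 1 gained it. In 0 cases did the sign change with a call in either fit. A change of sign between uncalled values was counted as staying, as for ESR1 (-0.108, and 0.017 without 0 h replicate 2). Of the 90 named genes that were called, 48 were called in all 6 fits without 1 library. The cause of these shifts was not tested.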

Other observations

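The genes below were chosen after their values were seen. All 3 subunits of the epithelial sodium channel, which takes up sodium across the apical membrane of epithelia, were called higher at 8 h by edgeR. SCNN1A was at 96.1, 120 and 109 CPM at 0 h and at 143, 139 and 168 CPM at 8 h (0.47, SE 0.11, adjusted p = 0.0191). SCNN1B was at 1.5, 1.03 and 1.59 CPM and then at 2.67, 4.46 and 4.2 CPM (1.45, SE 0.38, adjusted p = 0.0431). SCNN1G was at 0.2, 0.898 and 0.977 CPM and then at 4.17, 3.23 and 3.28 CPM (2.39, SE 0.51, adjusted p = 0.0104). The groups of 3 samples did not overlap in any of the subunits, and those of SCNN1B and SCNN1G rest on low counts. In sip53 cells the changes were 0.59, 1.58 and 3.63, all called.

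A pair of further low genes that corticosteroids or growth signals are known to regulate were higher. TSC22D3 (GILZ), an anti-inflammatory leucine zipper protein, was at 1.9, 2.69 and 1.95 CPM at 0 h, at 2.04, 3.55 and 1.62 CPM at 2 h and at 11.1, 6.91 and 7.07 CPM at 8 h (8 h against 0 h 1.94, SE 0.34, adjusted p = 0.00173). DEPTOR, which binds and inhibits mTOR, was at 0.701, 1.15 and 0.855 CPM at 0 h and at 7.65, 4.57 and 2.36 CPM at 8 h (2.42, SE 0.53, adjusted p = 0.0117). Its 8 h samples spread widely, yet all lay above the 0 h samples. SLC22A5, the carnitine transporter, was at 10.2, 5.52 and 8.92 CPM at 0 h, at 24.5, 25.4 and 24.9 CPM at 2 h and at 19.9, 21.8 and 22.5 CPM at 8 h (1.37, SE 0.18, adjusted p = 4.61e-05). KCNF1, a subunit of potassium channels, was at 1.8, 0.513 and 1.59 CPM at 0 h and at 5.45, 5.79 and 4.81 CPM at 8 h (2.00, SE 0.37, adjusted p = 0.00327).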
